A study of Drosophila melanogaster with 9 samples.

Results

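Ecdysone is the steroid hormone of insects, and 10 genes of its synthesis and response were followed in Drosophila melanogaster ovaries: dib, shd, EcR, usp, Eip75B, Eip74EF, Eip78C, br, Hr39 and ftz-f1. They were matched by symbol, and 9 of the 10 had a counted FlyBase identifier among the 17558 in the files. The identifier that the annotation gives for br, a zinc finger factor of the early response, is not among those counted, so br was not analysed here. All 9 matched genes passed the low-count filter.

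RNA was sequenced from ovaries of 3-day-old females reared at 25 °C, with 10 females per sample and 3 samples per genotype. In the mutant the chromosomes were moe[G0415] and moe[NES], so it lacked the w[1118] chromosome that both heterozygotes carry. Moe is the gene of the actin-binding protein Moesin. In the NES heterozygote the chromosomes were moe[NES] and w[1118]. In the null heterozygote they were w[1118] and moe[G0415], the allele the labels call null. Every group thus carried at least 1 altered Moe allele, no group had the wild-type gene on both chromosomes, and the labels do not spell out NES. Whether replicates are separate crosses is not stated, so a p-value here covers the spread among these samples, which may be technical.

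In adult females ecdysone is made in the ovary itself. A chain of enzymes turns dietary sterol into ecdysone, which is then hydroxylated to the active hormone. The hormone binds a nuclear receptor made of EcR and its partner Usp, and the loaded receptor switches on a first set of transcription factor genes, which in turn act on later genes. In the ovary the pathway is known for its part in germline stem cell upkeep, border cell migration, the decision of egg chambers to enter yolk uptake, eggshell formation and ovulation.

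Libraries held 31.8 to 43.6 M (1e6) gene counts. Moe, as a check of the labels, was at 409 ± 28.3 CPM in the mutant, 694 ± 75.02 CPM in the NES heterozygote and 388 ± 44.7 CPM in the null heterozygote (CPM, counts per 1e6 after TMM scaling; SD, n = 3 each). Of the markers chosen for germline cells and for follicle cells, every one with a counted identifier was detected in all libraries. Markers of the spermatheca, a tissue next to the ovary, summed to at most 0.0253 CPM. Of 8 fat body markers 7 were detected, and they summed to 17.9 to 53.7 CPM in the mutant, 32.7 to 44.1 CPM in the NES heterozygote and 29.1 to 55.8 CPM in the null heterozygote. Nearly all of that was apolpp, a lipoprotein gene, at 17.2 to 54.3 CPM, while the storage protein gene Lsp1alpha had 0 counts and each of the other fat body markers was at most 1.69 CPM. Muscle sheath markers summed to 108 to 196 CPM in the mutant, 66.2 to 124 CPM in the NES heterozygote and 73.3 to 142 CPM in the null heterozygote. Haemocyte markers summed to 73.5 to 128, 62.5 to 114 and 30.5 to 96.0 CPM in the same order. Most of that was srp, at 28.7 to 123 CPM over the libraries. Gut markers summed to 9.16, 0.0264 and 30.5 CPM in mutant replicates 1 to 3. They summed to at most 0.0843 CPM in the NES heterozygote and at most 1.11 CPM in the null heterozygote. Transcripts of 21 eggshell genes, which follicle cells make late in egg development, made up 4.47%, 2.87% and 3.96% of counts in the mutant libraries, 2.02%, 4.19% and 3.07% in those of the NES heterozygote and 0.700%, 3.85% and 0.870% in the null heterozygote. Null heterozygote replicates 1 and 3 stood apart with the lowest shares. In whole ovaries a lower level can mean fewer cells of a type or less RNA per cell, and these cannot be told apart.

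Across genotypes the result was short: of the 9 ecdysone genes, 0 were called in any of the 3 comparisons by edgeR's quasi-likelihood test with Benjamini-Hochberg adjusted p under 0.05. The same test called 1.25% of all 8642 genes between the mutant and the null heterozygote, 0.972% between the mutant and the NES heterozygote and 0.833% between the NES and the null heterozygote. Without adjustment 0 of the 9 had p under 0.05 in any comparison, against 17.0%, 11.3% and 9.55% of all genes in the same order, and DESeq2 called 0. For every gene the groups overlapped in each comparison, while 18.4%, 24.9% and 13.3% of all genes had groups that did not overlap. Over the 9 libraries the highest level was 13.4-fold the lowest for Eip78C, 6.86-fold for shd, 5.72-fold for Eip74EF and 3.63-fold for dib, and between 1.34-fold and 1.84-fold for the other members.

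**Figure D1:**
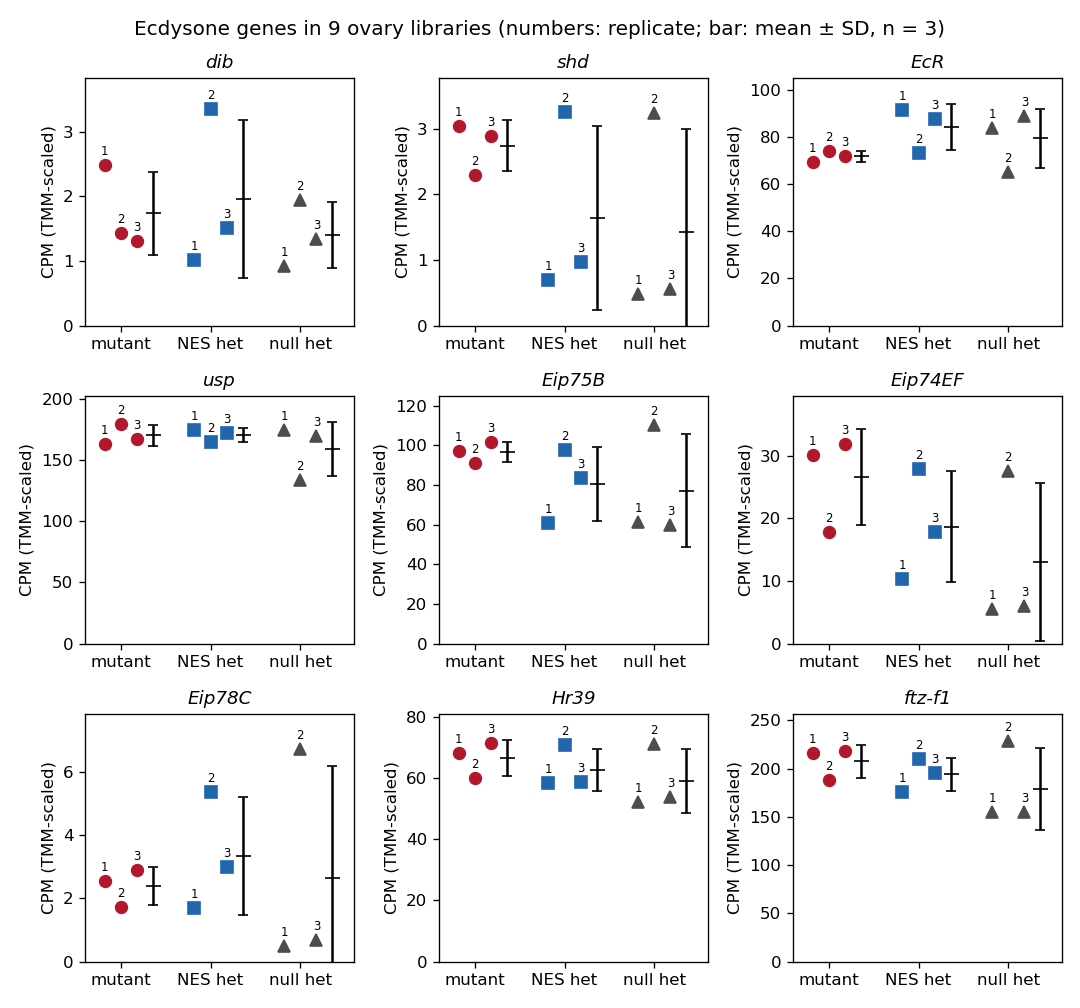
Level of each ecdysone gene in every library, in TMM-scaled CPM (vertical axis from 0), for the mutant, the NES heterozygote and the null heterozygote from left to right; numbers are replicates, and bars are the mean ± SD of 3 libraries, cut at 0 where they would run below it. Null heterozygote replicates 1 and 3 are both below every mutant library for shd, Eip75B, Eip74EF, Eip78C, Hr39 and ftz-f1, while replicate 2 of the same genotype is not.

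The synthesis genes dib and shd were scarce. The gene dib (FBgn0000449, chromosome 3L, 4062292 to 4064551, plus strand, BDGP6.54 annotation) encodes a cytochrome P450 that adds one of the last hydroxyl groups of ecdysone. It was at 2.48, 1.43 and 1.31 CPM in mutant replicates 1 to 3, against 1.01, 3.35 and 1.52 CPM in the NES heterozygote and 0.923, 1.95 and 1.34 CPM in the null heterozygote. Its highest and lowest libraries were both heterozygotes. The log2 fold change was 0.31 (SE 0.50, adjusted p = 0.704) for the mutant against the null heterozygote and -0.17 (SE 0.49, adjusted p = 0.873) against the NES heterozygote. With 35 to 113 reads per library the 95% interval of the first ran between -0.82 and 1.45. Neither a fall nor a rise within that range is excluded. Of its exon bases, 20.3% lie opposite exons of wit, and how the counting used strand is not given in the sources used here, so part of the dib count is uncertain.

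The gene shd (FBgn0003388, 3L, 14614458 to 14622205, plus strand) encodes the cytochrome P450 that turns ecdysone into the active hormone. It was at 3.04, 2.30 and 2.89 CPM in the mutant libraries, against 0.702, 3.26 and 0.962 CPM in the NES heterozygote and 0.475, 3.245 and 0.557 CPM in the null heterozygote. All 3 mutant libraries were high, and so was replicate 2 of each heterozygote, while replicates 1 and 3 of each heterozygote were low. The mutant averaged 2.74 ± 0.391 CPM and the null heterozygote 1.425 ± 1.58 CPM (SD, n = 3 each). On the log2 scale this came to 0.96 (SE 0.80, adjusted p = 0.489). Against the NES heterozygote, at 1.64 ± 1.41 CPM, it was 0.74 (SE 0.80, adjusted p = 0.683). Within each heterozygote the SD was close to the mean.

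The receptor pair varied little, with 1.41-fold between the highest and lowest library for EcR and 1.34-fold for usp. EcR (FBgn0000546, 2R, 6087873 to 6169087, minus strand), the ecdysone receptor, was at 69.4, 74.1 and 72.2 CPM in the mutant, against 91.7, 73.3 and 87.9 CPM in the NES heterozygote and 84.0, 65.3 and 89.1 CPM in the null heterozygote. The mutant libraries lay close together and inside the range of the null heterozygote. The log2 fold change of the mutant was -0.23 (SE 0.13, adjusted p = 0.528) against the NES heterozygote, with a 95% interval between -0.51 and 0.06, and -0.14 (SE 0.13, adjusted p = 0.500) against the null heterozygote. The gene usp (FBgn0003964, X, 2038798 to 2042311, minus strand) encodes the partner of EcR and is the fly relative of the vertebrate retinoid X receptors. It was at 164, 179.7 and 168 CPM in the mutant, 175, 165 and 172 CPM in the NES heterozygote and 174.5, 134 and 169.9 CPM in the null heterozygote. That span was the least of the set, and the 95% intervals of usp in the 3 comparisons stayed between -0.23 and 0.32 on the log2 scale. Exons of Actn on the same strand cover 8.72% of usp exon bases and exons of CG4313 on the other strand 6.45%, so some of its reads may be counted elsewhere.

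Among the early response genes, Eip75B (FBgn0000568, 3L, 17950953 to 18064696, minus strand) encodes a haem-binding nuclear receptor. It was at 97.1, 91.3 and 101.4 CPM in the mutant, 60.6, 97.3 and 83.6 CPM in the NES heterozygote and 61.3, 110.2 and 59.9 CPM in the null heterozygote. The mutant libraries sat together near the top, and the heterozygotes spread from the lowest library of the series to the highest. The log2 fold change was 0.32 (SE 0.25, adjusted p = 0.460) against the null heterozygote and 0.26 (SE 0.25, adjusted p = 0.652) against the NES heterozygote.

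Eip74EF (FBgn0000567, 3L, 17558672 to 17619325, minus strand) encodes an ETS-domain transcription factor. It was at 30.1, 17.8 and 31.8 CPM in the mutant, 10.25, 28.0 and 17.8 CPM in the NES heterozygote and 5.56, 27.6 and 6.03 CPM in the null heterozygote. Mean levels were 26.55 ± 7.67, 18.7 ± 8.88 and 13.1 ± 12.6 CPM in the mutant, NES heterozygote and null heterozygote (SD, n = 3 each). The mutant mean was the highest and was 2.04-fold that of the null heterozygote as fitted, the largest fold in the set for any comparison. The log2 fold change of 1.03 (SE 0.63, adjusted p = 0.387) did not pass, and null heterozygote replicate 2 lay between mutant replicates 2 and 1.

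Eip78C (FBgn0004865, 3L, 21226609 to 21266503, plus strand) encodes a nuclear receptor of the early-late response and is a relative of Eip75B. It was at 2.55, 1.72 and 2.89 CPM in the mutant, 1.685, 5.36 and 2.97 CPM in the NES heterozygote and 0.501, 6.72 and 0.684 CPM in the null heterozygote. It spanned 13.4-fold over the 9 libraries, more than any other gene of the set, and its lowest and highest libraries were both null heterozygotes. The log2 fold change was -0.13 (SE 0.90, adjusted p = 0.937) against the null heterozygote and -0.48 (SE 0.90, adjusted p = 0.806) against the NES heterozygote. The first interval ran between -2.18 and 1.92, the widest of the set.

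The remaining genes, Hr39 and ftz-f1, encode nuclear receptors of the NR5 family. Hr39 is known for a part in ovulation, and ftz-f1 for the last steps of follicle maturation in the ovary. Hr39 (FBgn0261239, 2L, 21237250 to 21259675, plus strand) was at 68.1, 60.2 and 71.4 CPM in the mutant, 58.4, 70.75 and 58.85 CPM in the NES heterozygote and 52.25, 71.1 and 54.0 CPM in the null heterozygote. The gene ftz-f1 (FBgn0001078, 3L, 18750607 to 18801309, minus strand) was at 217, 188 and 218 CPM in the mutant, 176, 210.4 and 196 CPM in the NES heterozygote and 155, 228 and 155 CPM in the null heterozygote. The heterozygote libraries lay on both sides of the mutant's lowest library for both genes. Log2 fold changes of the mutant against the null heterozygote were 0.17 (SE 0.14, adjusted p = 0.469) for Hr39 and 0.21 (SE 0.15, adjusted p = 0.439) for ftz-f1. A long noncoding gene, lncRNA:CR45939, shares 29.4% of ftz-f1 exon bases on the same strand, so reads there may be counted for neither.

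**Figure D2:**
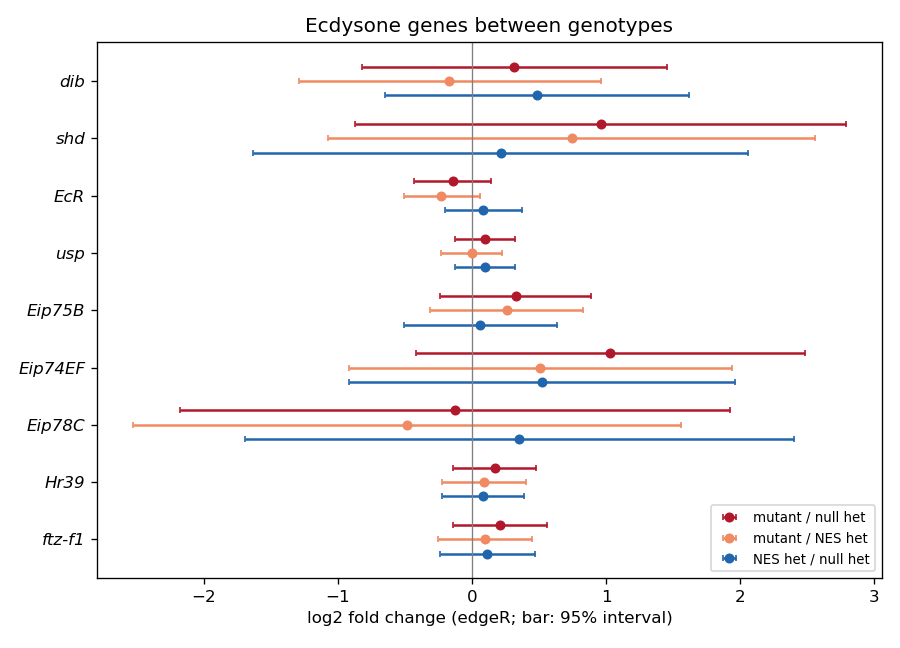
Log2 fold change of each ecdysone gene (horizontal axis) in the comparisons mutant over null heterozygote, mutant over NES heterozygote and NES over null heterozygote, with 95% intervals from the edgeR fit to 9 libraries. Every interval contains 0; intervals are narrow for EcR, usp, Hr39 and ftz-f1 and wide for dib, shd, Eip74EF and Eip78C.

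Between the heterozygotes, all 9 genes had a positive log2 fold change in the NES against the null heterozygote, where 49.3% of all genes did, but the values were small, from 0.06 for Eip75B to 0.52 for Eip74EF, with adjusted p from 0.923 to 0.995. The median over the 9 was 0.11, against 0.00 over all genes. The mutant had 7 of 9 positive against the null heterozygote, with 50.0% of all genes positive (median 0.21, all genes 0.00). It had 5 of 9 positive against the NES heterozygote, with 50.4% of all genes positive (median 0.09, all genes 0.00). The comparisons share libraries, so these counts are not independent of each other. The 9 genes were also chosen with earlier results of these data known, so the counts are no test. No direction of the 9 genes turned under DESeq2's size factors or under TMM scaling without eggshell, yolk and mitochondrial genes.

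The levels of shd, Eip74EF and Eip78C moved most with the eggshell share from library to library. Null heterozygote replicate 1 or 3 was the lowest library for dib, shd, Eip75B, Eip74EF, Eip78C, Hr39 and ftz-f1. The reverse held for EcR and usp, for which null heterozygote replicate 2 was the lowest. A slope on the log2 eggshell share was read from the edgeR fit with genotype as the other term, a measure added after the data were seen and given without a test. Per doubling of the share, the log2 level was higher by 1.51 (SE 0.12) for Eip78C, 1.25 (SE 0.19) for shd, 1.04 (SE 0.07) for Eip74EF, 0.57 (SE 0.22) for dib and 0.39 (SE 0.04) for Eip75B. It was higher by 0.25 (SE 0.02) for ftz-f1 and by 0.20 (SE 0.03) for Hr39, and the slopes of EcR and usp were -0.19 (SE 0.03) and -0.15 (SE 0.02).

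For scale, the median slope over all 8642 genes was 0.01, with the middle 80% of genes between -0.27 and 0.53. Of all genes 0.579% had a higher slope than Eip78C, 1.37% than shd, 2.65% than Eip74EF and 8.69% than dib. The slopes of Eip75B, ftz-f1, Hr39, usp and EcR lay inside that middle range, with 14.0%, 21.0%, 24.7%, 77.3% and 82.0% of genes above them. The slopes kept their signs without null heterozygote replicates 1 and 3, at 1.44 (SE 0.30) for Eip78C, 1.67 (SE 0.47) for shd, 1.36 (SE 0.13) for Eip74EF, 0.51 (SE 0.09) for Eip75B, -0.25 (SE 0.07) for EcR and -0.12 (SE 0.05) for usp. For dib it was 1.45 (SE 0.44), steeper than with all libraries. The other slopes were 0.27 (SE 0.08) for Hr39 and 0.27 (SE 0.06) for ftz-f1. Of the 11 follicle cell markers counted, 5 are eggshell genes of the share itself and 3 are yolk genes, so their sum largely restates that share. It was 20100 to 30200 CPM in the mutant, 13400 to 28500 CPM in the NES heterozygote and 4580 to 28800 CPM in the null heterozygote. The 3 others were also low in null heterozygote replicates 1 and 3. The factor gene tj was at 175, 131 and 153 CPM in the mutant, 64.6, 146 and 95 CPM in the NES heterozygote and 38.7, 177 and 43.2 CPM in the null heterozygote. The adhesion gene Fas3 ranged between 27.5 and 63.3 CPM over the 9 libraries and the border cell gene slbo between 0.279 and 4.48 CPM. Germline markers ranged less, at 3250 to 3730, 2950 to 3610 and 2820 to 3840 CPM in the same order. The part of cell makeup in the levels of the ecdysone genes was not tested.

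**Figure D3:**
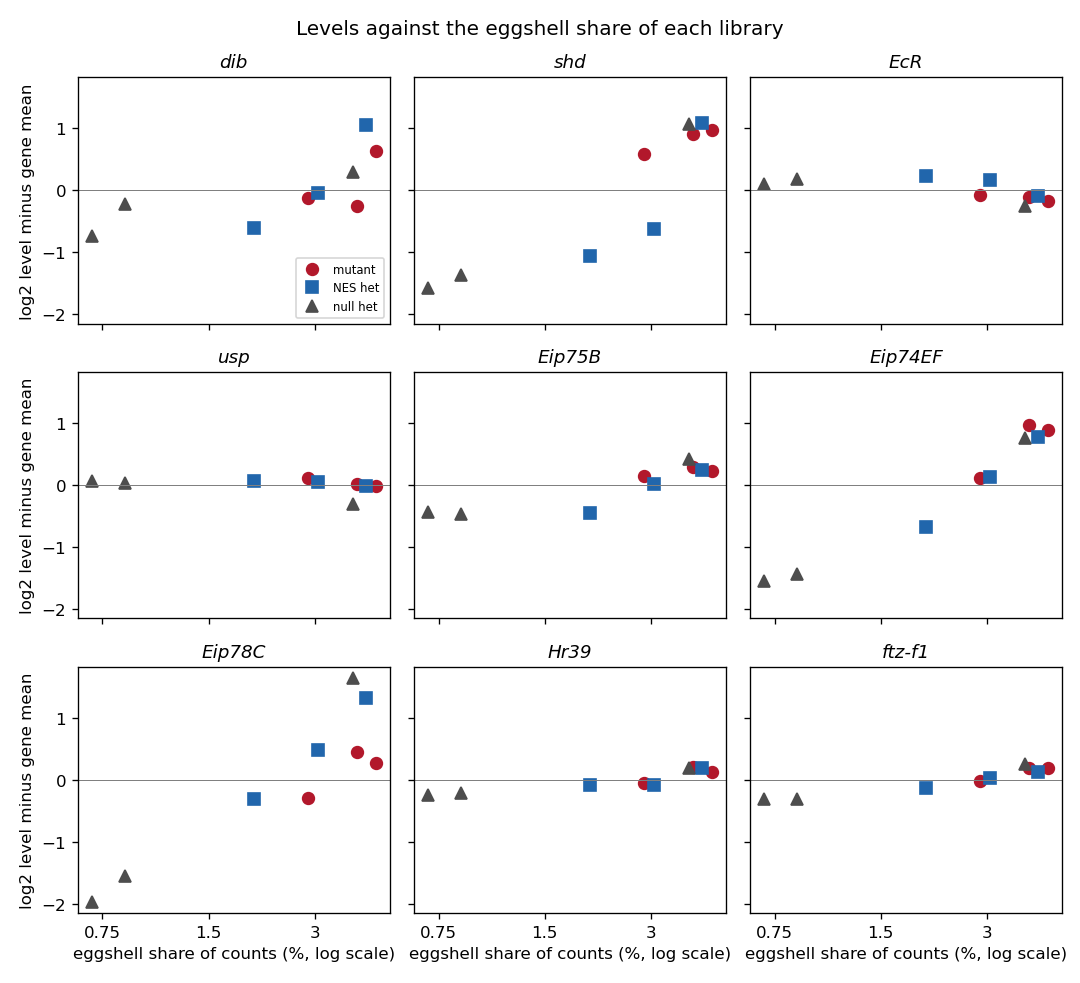
Log2 level of each ecdysone gene minus its mean over 9 libraries (vertical axis, same scale in all panels) against the share of counts in eggshell genes in percent (horizontal axis, log scale); each point is 1 library, marked by genotype. Points climb to the right for Eip78C, shd, Eip74EF and Eip75B, climb slightly for Hr39 and ftz-f1, and dip slightly for EcR and usp.

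How the mutant compared with the null heterozygote depended on the libraries. Without null heterozygote replicate 2, which leaves the pair with low eggshell shares, 7 of the 9 ecdysone genes were called, but so were 41.6% of all genes. Under that setting shd, Eip74EF and Eip78C were higher in the mutant by 2.40, 2.19 and 2.0 on the log2 scale, Eip75B, ftz-f1 and Hr39 by 0.67, 0.42 and 0.32, and EcR was lower (-0.27). Adjusted p was 0.00720 for Eip74EF there and reached 0.975 in its other alternatives. Without replicates 1 and 3 instead, which leaves 1 null heterozygote library, assumed to vary like the other groups, 0 of 9 were called (0.206% of all genes) and the values were -0.25 for shd, -0.07 for Eip74EF, -1.50 for Eip78C and -0.20 for Eip75B. Of these, Eip78C was already negative with all libraries, and the other 3 turned sign. Between the NES and the null heterozygote, leaving out null heterozygote replicate 2 gave calls for 2 of 9, Eip74EF (1.69) and Eip78C (2.49), where 8.38% of all genes were called.

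With the eggshell share as a covariate, Eip78C and usp passed between the mutant and the null heterozygote, 2 of 9 genes where 8.64% of all genes passed. For Eip78C the mutant was then lower, with -1.41 on the log2 scale (SE 0.25), and its adjusted p of 0.00932 compares with values up to 0.980 in its other alternatives. Its level in mutant replicates 1 and 3 was 2.55 and 2.89 CPM at eggshell shares of 4.47% and 3.96%, against 5.36 CPM at 4.19% in NES heterozygote replicate 2 and 6.72 CPM at 3.85% in null heterozygote replicate 2. Against the NES heterozygote Eip78C was also lower under the covariate (-0.85, SE 0.21, adjusted p = 0.0238, and up to 0.990 in its other alternatives), the 1 call of 9 where 12.5% of all genes passed. The usp value was 0.32 (SE 0.05, adjusted p = 0.00379, and up to 0.833 in its other alternatives) against the null heterozygote and 0.04 against the NES heterozygote. Between the NES and the null heterozygote, EcR (0.31) and usp (0.28) were higher and Eip75B (-0.36) and ftz-f1 (-0.15) lower, 4 of 9 where 28.2% of all genes passed. Null heterozygote replicates 1 and 3, at 0.700% and 0.870%, had eggshell shares below every library of the other genotypes. Covariate values against the null heterozygote therefore lean on the fitted slope and on its replicate 2. Whether genotype changes the share was not tested, and the fit cannot separate share from genotype.

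**Figure D4:**
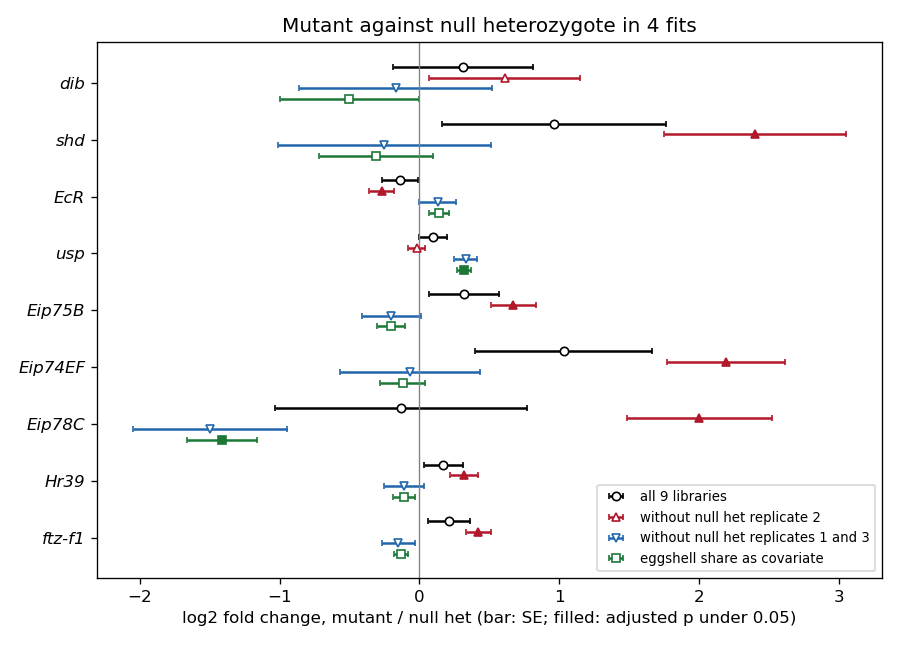
Log2 fold change of the mutant over the null heterozygote (horizontal axis, with SE bars) for each ecdysone gene in 4 fits: all 9 libraries, without null heterozygote replicate 2, without null heterozygote replicates 1 and 3, and with the eggshell share as a covariate. Filled points have adjusted p under 0.05; shd, Eip74EF and Eip78C lie at 2.0 or above without replicate 2 and below 0 in the fits drawn under it.

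Set beside each other per length, the genes spanned a broad range. CPM per kilobase of annotated exon averaged 54.9 ± 4.38 for usp, 22.6 ± 3.19 for ftz-f1, 12.6 ± 1.53 for Hr39, 7.91 ± 0.974 for EcR and 6.30 ± 1.45 for Eip75B (SD over 9 libraries). Eip74EF followed at 2.08 ± 1.12, dib at 0.861 ± 0.394, shd at 0.642 ± 0.410 and Eip78C at 0.474 ± 0.352. The order from usp to Hr39 was the same in 9 of 9 libraries. EcR and Eip75B did not differ beyond their spread, with EcR higher in 6 of 9 libraries, and neither did dib, shd and Eip78C, each above the next in 6 of 9. The partner gene usp was thus well above EcR on this scale in every library. Before scaling by length, usp averaged 166.9 CPM and EcR 78.56 CPM over 9 libraries. Lengths are those of all annotated exons joined, which makes genes with many alternative exons look lower than 1 transcript would. Such genes are Eip75B, with 7 transcripts and 13451 exon bases, and EcR, with 6 transcripts and 9934, while usp has 2 and 3038.

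**Figure D5:**
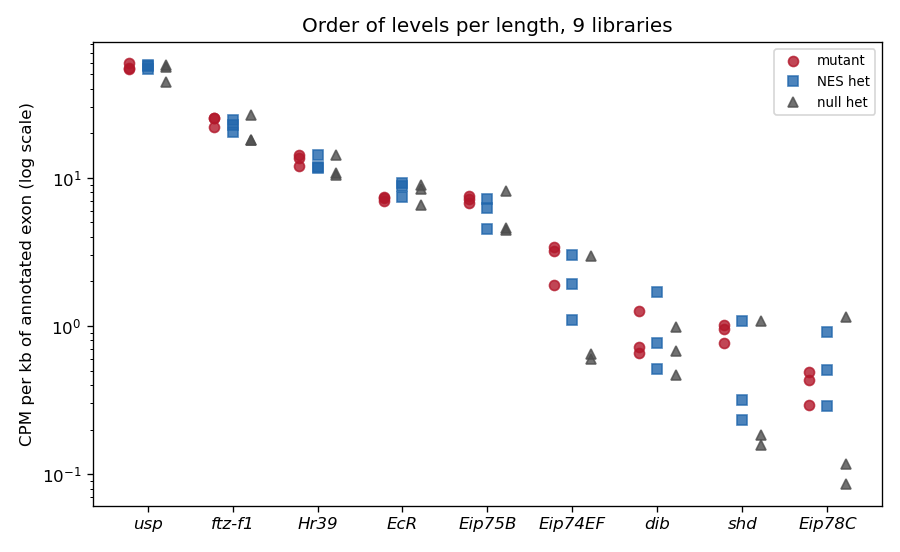
CPM per kilobase of annotated exon (vertical axis, log scale) of each ecdysone gene in 9 libraries, ordered by mean and split by genotype. From usp down to Hr39 the libraries of neighbouring genes do not overlap, EcR and Eip75B overlap, and dib, shd and Eip78C overlap.

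Of the genes counted, Eip74EF, Eip75B and ftz-f1 lie nearest each other, with 331.6 kb and 60 genes between Eip74EF and Eip75B and 685.9 kb and 85 genes between Eip75B and ftz-f1. Their spread over the libraries differed, at 5.72-fold for Eip74EF, 1.84-fold for Eip75B and 1.48-fold for ftz-f1. By the root mean square difference of centred log2 levels over 9 libraries, the genes most like a member were Fancl (0.028) and gd (0.033) for EcR, Stam (0.041) and Kaz (0.042) for usp, a (0.073) and Polr1D (0.080) for Eip75B, and cpo (0.093) and geko (0.112) for Eip74EF. For Hr39 they were roq (0.032) and Vha100-2 (0.034), and for ftz-f1 Gp93 (0.036) beside 1 identifier with no symbol here. The differences were larger for the low genes: PGRP-LB (0.286) and CG4607 (0.294) for dib, CG4462 (0.223) and CG12206 (0.249) for shd, and CG13737 (0.345) and CG32694 (0.358) for Eip78C. A gene's own spread also enters this measure. That spread was 0.545, 1.067 and 1.126 log2 units for dib, shd and Eip78C, 0.929 for Eip74EF and 0.117 for usp. Values of different members are therefore not on a common scale.

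Beyond these genes, 61 other genes of ecdysone synthesis, transport, receptor function, response and follicle maturation had counts, and 48 were tested. Only Cyp6t3, of these 48, was called in any comparison. Cyp6t3 (2R, 12190682 to 12192436, plus strand) encodes a cytochrome P450 known for ecdysone synthesis in the larval prothoracic gland. It had 102, 61 and 97 counts in the mutant, 2, 2 and 3 in the NES heterozygote and 39, 64 and 29 in the null heterozygote, or 2.13 ± 0.449, 0.0676 ± 0.0172 and 1.28 ± 0.706 CPM (SD, n = 3 each). The NES heterozygote was lower than both other genotypes with no overlap, and the mutant and null heterozygote overlapped. The log2 fold change was 4.91 (SE 0.53, adjusted p = 0.00467) for the mutant against the NES heterozygote, with a 95% interval between 3.70 and 6.12, and with 2 or 3 reads a library in the NES heterozygote its size is imprecise. With the NES heterozygote over the null heterozygote it was -4.17 (SE 0.53, adjusted p = 0.00935). The second call was lost without NES heterozygote replicate 1 or 2, in the fit to the compared groups alone and with replicate number as a block, and the first held in each of these. With a filter at a mean of 5 CPM the gene is not tested. Among the genotypes, only the NES heterozygote lacks the moe[G0415] chromosome. Whether the Cyp6t3 level follows a Moe allele or other parts of a chromosome was not tested, and these genotypes do not separate them.

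The other synthesis enzyme genes are named here after their values were seen. Of spo and spok, close relatives for the same early step, spo had 4772 counts over the 9 libraries and spok had 5. Means in the mutant, NES heterozygote and null heterozygote were 18.5, 14.2 and 10.8 CPM for spo, 12.5, 7.03 and 6.20 CPM for sro, 6.84, 3.62 and 2.92 CPM for phtm, the gene formerly called phm, and 6.17, 4.88 and 4.88 CPM for sad. Of these 0 were called, and their slopes per doubling of the eggshell share were 1.12 (SE 0.10), 0.90 (SE 0.08), 0.93 (SE 0.13) and 0.76 (SE 0.10) in that order, on the same side as those of dib and shd. The most abundant genes of the synthesis list, the zinc finger factor genes woc and mld, had slopes of the other sign (-0.33, SE 0.03, and -0.37, SE 0.03).

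Of the remaining lists, 0 genes were called. Among transport and breakdown genes E23, a transporter gene, averaged 181.7, 179 and 164 CPM in the mutant, NES heterozygote and null heterozygote, and Cyp18a1, which inactivates the hormone, 44.0, 31.9 and 29.7 CPM. Among receptor partners the chaperone gene Hsp83 averaged 4682, 4804 and 4640 CPM and the chromatin remodelling gene E(bx) 557, 629 and 659 CPM. Among other nuclear receptors Hr96 averaged 76.1, 72.7 and 78.3 CPM and Hnf4 79.5, 71.3 and 74.5 CPM, and dsf had 0 counts in all libraries. Among response genes the zinc finger gene crol averaged 187.6, 186 and 191 CPM. Cth, formerly Eip55E, averaged 179 CPM in the mutant, 159 CPM in the NES heterozygote and 163 CPM in the null heterozygote. Of the 13 response genes tested, 3 had all mutant libraries above all null heterozygote libraries, where 10.6% of all genes did. Sox14 and Eip93F, among these, are named after their values were seen. Sox14 averaged 48.3, 38.5 and 30.15 CPM and Eip93F 17.2, 14.2 and 11.3 CPM in the same order. For the mutant against the null heterozygote their adjusted p by edgeR was 0.0919 and 0.111.

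For follicle maturation genes, 0 of 8 were called between the mutant and the null heterozygote. This list, like the others, was chosen with earlier results of these data known, so its medians and counts are no test. Their median log2 fold change was 0.64 against 0.00 over all genes, and 5 of 8 had no overlap between the groups with the mutant higher, where 10.6% of all genes did. Against the NES heterozygote the median was 0.19 and 1 of 8 had no overlap, where 24.9% of all genes had none. Between the NES and the null heterozygote the median was 0.35, all 8 were positive and 1 had no overlap, where 13.3% of all genes had none. The factor gene ttk averaged 229, 215 and 208 CPM in the mutant, NES heterozygote and null heterozygote, and the NADPH oxidase gene Nox 93.9, 88.4 and 56.9 CPM. Over the null heterozygote, Nox had a log2 fold change of 0.72 in the mutant (SE 0.17, adjusted p = 0.0949) and of 0.64 in the NES heterozygote (SE 0.17, adjusted p = 0.162). By DESeq2 with its own adjustment Nox passed in both (adjusted p = 0.00269 and 0.0143). In the mutant against the null heterozygote Mmp2 and sim also passed (0.96 and 0.66 on the log2 scale). Sox14 and Eip93F, which belong to the response list and not to this one, passed there too (0.67 and 0.60). In that comparison the tool called 6.39% of all genes. With the eggshell share as a covariate in edgeR, none of Nox, Mmp2, sim, Sox14 and Eip93F passed there, where 8.64% of all genes did. Without null heterozygote replicate 2 all of them passed, where 41.6% of all genes did.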

How the data were processed

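Per the labels' protocols, ovary RNA was isolated with TRIzol and sequenced from stranded mRNA libraries. Tools listed in the submitters' processing notes, with no roles, are HISAT2 2.0.4, SAMtools 0.1.19, Trimmomatic 0.36, HTSeq and FastQC, and the build is BDGP6. Annotation release, strand setting and treatment of multi-mapping reads: not given in the sources used here. The authors deposited raw read counts per gene, 1 file per library, with 0 entries that name no gene. Symbols, coordinates and exon lengths came from the Ensembl BDGP6.54 annotation, which matched 17252 of 17558 identifiers.

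Counts were filtered by edgeR 4.0.16 (filterByExpr, minimum count 10, total 15) in R 4.3.3, scaled by TMM, and fitted by the quasi-likelihood method to all 9 libraries with 1 coefficient per genotype; p-values were adjusted over 8642 genes. An SE is the absolute log2 fold change over the square root of F. The procedure was tested on simulated data. Replicate pairs differed beyond sampling noise (chi-square per degree of freedom 16.7 to 289), and each library was counted once. That difference does not show whether replicates are separate biological samples. DESeq2 1.42.0 and other settings served as alternatives. Likeness used log2 CPM with prior count 2 over genes of at least 1 CPM. Genes were named by rule: all members, called pathway genes, the 2 most abundant of each list and genes at 0 counts. Members and lists were chosen with earlier results of these data known.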

Additional observations from a re-analysis of the deposited data

How the results depend on the processing

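Counts below are given for the mutant against the null heterozygote, the mutant against the NES heterozygote and the NES against the null heterozygote, in that order. Of 477 log2 fold changes of the 9 genes under alternatives, 410 kept direction and side of the threshold and 54 turned sign; 16 passed, 3 of them with the sign turned. With all libraries 0 passed, so none could be lost. Over all genes the calls of 108, 84 and 72 became 552, 345 and 341 by DESeq2, 61, 27 and 33 with a mean of at least 5 CPM, 51, 145 and 24 with only the groups compared, and 747, 1079 and 2438 with the eggshell covariate. Without null heterozygote replicates 1 and 3 they were 19 in the first and 32 in the last. Correlations of deviations between same-numbered libraries ran from -0.45 to 0.48, with no pairing by number across all 3 genotypes. Between the heterozygotes they were 0.47, 0.48 and -0.03 for replicates 1 to 3. NES heterozygote replicate 1 with null heterozygote replicate 3, of unlike number, gave 0.46. Whether heterozygote samples shared handling was not tested. With the replicate block the calls were 59, 34 and 38, the pathway call between heterozygotes went to 0, and Eip78C was 0.77 in the first comparison. Leaving out 1 library gave 26 to 3679, 28 to 259 and 35 to 741, the highest each time without null heterozygote replicate 2. Of the 9 genes, 2, 1 and 4 were called with the covariate, and leaving out 1 library gave 0 to 7, 0 to 0 and 0 to 2. Of 48 pathway genes, calls were 5, 4 and 19 with the covariate; 5 in the first and 2 in the last by DESeq2; 0 in the second and in the last with the 5 CPM filter; and 0 in the last with only the groups compared. Leaving out 1 library gave 0 to 24 in the first and 0 to 7 in the last. In the first comparison, the covariate and the loss of null heterozygote replicates 1 and 3 turned dib (-0.50 and -0.17), shd (-0.31 and -0.25), EcR (0.14 and 0.13), Eip75B (-0.20 and -0.20), Eip74EF (-0.12 and -0.07), Hr39 (-0.11 and -0.11) and ftz-f1 (-0.13 and -0.15). In the last they turned dib (-0.22 and 0.00), shd (-0.85 and -1.0), Eip75B (-0.36 and -0.46), Eip74EF (-0.36 and -0.58), Eip78C (-0.57 and -1.02), Hr39 (-0.13 and -0.19) and ftz-f1 (-0.15 and -0.24). In the second, usp turned to 0.02 with the 5 CPM filter and 0.04 with the covariate. Leaving out 1 library turned dib (-0.03 to 0.61), usp (-0.02 to 0.15) and Eip78C (-0.63 to 2.0) in the first; dib (-0.52 to 0.46), usp (-0.05 to 0.02) and Eip78C (-0.80 to 0.03) in the second; and dib (-0.15 to 0.78), shd (-0.76 to 1.66), EcR (-0.04 to 0.18), usp (-0.01 to 0.16), Eip75B (-0.10 to 0.41), Eip78C (-0.17 to 2.49) and Hr39 (-0.01 to 0.24) in the last. The cause of these shifts was not tested. The fewest reads over 9 libraries were those of dib, shd and Eip78C (562, 642 and 887), followed by Eip74EF (6469). In the first comparison the SEs of these genes were 0.50, 0.80, 0.90 and 0.63 in that order. The other members had 20873 to 64323 reads and SEs between 0.10 and 0.25. Within either set the SE did not follow the read number. The part of read number in the errors was not tested.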

Other observations

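Among the other pathway genes, Hr3 had the highest and Octbeta2R the lowest slope on the eggshell share; they are named after their values were seen, and no test was made. Hr3, a nuclear receptor gene of the ecdysone cascade, had a slope of 1.57 (SE 0.11) per doubling of the share, with 0.509% of all genes above it. It averaged 12.05 CPM in the mutant, 7.52 CPM in the NES heterozygote and 5.62 CPM in the null heterozygote and was not called. Octbeta2R, an octopamine receptor gene known for ovulation, ran the other way at -0.86 (SE 0.14), with 99.1% of all genes above it. Among zinc finger factor genes of the synthesis list, ouib had 17 counts over the 9 libraries and mld 95249.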
